A study of Homo sapiens with 9 samples.

Results

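A set of 9 genes of pericellular proteolysis was read from the OVCAR4 count table by their gene symbols, 9 of the 58735 genes it lists: the plasminogen activators PLAU and PLAT, the urokinase receptor PLAUR, the matrix metalloproteinases MMP7, MMP10 and MMP14, and the tissue inhibitors of metalloproteinases TIMP1, TIMP2 and TIMP3. The rule that picks them uses names and no measured value, but the set was drawn up with earlier results of these data known. Each of the 9 passed the filter on low counts that left 16928 genes for testing. The libraries came from OVCAR4, an established human ovarian serous adenocarcinoma cell line, with the genotype given as WT for the scr control and as MPZL3 knock-down for the other libraries. Cells received lentiviral shRNA from the pLKO.1 vector, either the scramble sequence (scr control) or a hairpin against MPZL3 (shMPZL3 #1 or shMPZL3 #2), and were selected with puromycin for 3 days before poly-A RNA-seq. Each of the 3 groups had 3 biological replicates, so that all 9 libraries shared the vector and the selection, and each shRNA was represented by 1 hairpin sequence. MPZL3 encodes a membrane protein with an immunoglobulin-like domain, and the comparisons asked which transcripts changed when it was knocked down.

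Cells break down the matrix around them with linked systems of serine proteases and metalloproteinases, and the 9 genes span both. Urokinase, encoded by PLAU, binds its receptor PLAUR at the cell surface and cuts plasminogen to plasmin, a broad serine protease that can also activate metalloproteinase precursors, while PLAT encodes the tissue-type activator that works mainly on fibrin. Matrix metalloproteinases are zinc enzymes made as inactive precursors, and TIMP proteins bind their active sites. TIMP2 also takes part in activation: a complex of TIMP2 and the membrane-anchored MMP14 is known to recruit the MMP2 precursor for activation. In ovarian cancer, proteases of these systems are studied for their place in invasion, and transcript levels do not measure protease activity.

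MMP7 and MMP10 lie on chromosome 11 and encode matrilysin and stromelysin-2. The RefSeq promoters of both (GRCh38.p14, minus strand) are shown because both genes were higher with each hairpin and because the short matches within them fall at nearly the same places, with matches to the AP-1 letters TGANTCA and to TATAAA, the letters of a TATA box, in capitals. Each runs from 250 to 11 bases before the annotated start and is written 5′ to 3′.
MMP7, chr11:102530758-102530997: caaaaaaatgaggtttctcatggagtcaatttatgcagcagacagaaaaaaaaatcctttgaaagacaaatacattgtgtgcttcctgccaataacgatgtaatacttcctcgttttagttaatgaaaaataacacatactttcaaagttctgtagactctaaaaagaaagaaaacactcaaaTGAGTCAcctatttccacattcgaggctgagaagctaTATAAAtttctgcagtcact
MMP10, chr11:102780639-102780878: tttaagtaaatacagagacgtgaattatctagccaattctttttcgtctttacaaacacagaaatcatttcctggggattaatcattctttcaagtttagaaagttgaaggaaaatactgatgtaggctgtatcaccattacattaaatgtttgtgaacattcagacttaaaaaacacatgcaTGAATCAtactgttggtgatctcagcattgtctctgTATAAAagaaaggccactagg
The AP-1 letters spanned bases -67 to -61 in both. The TATA letters began at base -30 in MMP7 and at base -31 in MMP10. PLAUR held an AP-1 match at bases -186 to -180 (GRCh38.p14, minus strand), shown with 10 bases on each side.
PLAUR, chr19:43670339-43670365: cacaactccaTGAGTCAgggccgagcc
Of the 9 genes, 7 had a RefSeq promoter entry of 300 bases (250 before the start and 50 from it), PLAU with a pair of entries. PLAT and TIMP2 had none. AP-1 letters, which read the same on both strands, stood in 3 of the 7 genes and in 7.71% of 35116 promoters of that length. On either strand, TATAAA stood in 11.5%, CAGGTG in 20.6% and AGGAAG in 33.6% of them. Neither TGANTCA nor TATAAA was found in the windows of PLAU, MMP14, TIMP1 or TIMP3. AGGAAG was found in PLAU, PLAUR, MMP7 and TIMP1, and CAGGTG in PLAU. The GC content was 35.7% for MMP7 and 36.3% for MMP10, against a median of 58.7% over all promoters. These matches describe letters and not binding. The RefSeq start lay 6 bases from the start of the gene in the deposited table for MMP7, 0 for MMP10 and 378 for PLAUR. For PLAU the RefSeq starts lay 1433 and 1955 bases from it, and the windows of PLAUR and PLAU fall inside those genes as the table draws them.

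The libraries held 15040102 to 27835841 counts, and replicates of a group differed by more than sampling noise in every pair (chi-square of 3.03 to 21.2 per gene). The targeted gene fell with both hairpins: mean MPZL3 (± SD, n = 3) was 578 ± 38.5 normalized counts in scr control libraries, 128 ± 12.9 in those of shMPZL3 #1 and 312 ± 59.5 in those of shMPZL3 #2, where a normalized count is a count scaled to the mean library size after trimmed-mean normalization. The knockdown was deeper with shMPZL3 #1, by 1.28 on the log2 scale (edgeR quasi-likelihood test, adjusted p = 5.72e-05). Epithelial markers were high in every library (PAX8 3381 to 7202 counts, KRT7 28710 to 75675), whereas WT1, a common marker of serous carcinoma, had 3 to 13 counts. Of 6 fibroblast markers only COL1A1, COL1A2 and LUM passed the filter, and DCN had 0 counts in every library. Summed over the 6, their level was 379 to 464 normalized counts in scr control libraries, 873 to 1273 under shMPZL3 #1 and 694 to 777 under shMPZL3 #2. Of 5 leukocyte markers, CD3E, CD68 and MS4A1 had at most 4 counts in any library, and the sum of the 5 was 13.3 to 20.6, 22.0 to 40.7 and 32.4 to 52.7 normalized counts in the same order. The sums of 4 endothelial markers (168 to 208, 152 to 183 and 257 to 332) and of 4 mesothelial markers (2658 to 2754, 1892 to 2610.2 and 2444 to 3776, most of it UPK3B) are given in that order too. Mitochondrial genes took 7.16% to 7.76% of counts in scr control libraries, 7.75% to 8.65% under shMPZL3 #1 and 7.39% to 7.80% under shMPZL3 #2.

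With both hairpins grouped as the knockdown condition, the 2 activators, the receptor and the 3 metalloproteinases rose, and none of the 3 TIMP genes passed the test. The count was 6 of 9 higher and 0 lower at an adjusted p under 0.05 (edgeR quasi-likelihood test, 6 libraries against 3, Benjamini-Hochberg over 16928 genes), against 9.36% of all tested genes higher and 6.40% lower. The 2667 genes behind those shares became 625 without scr control replicate 1, when 4 of the 9 were still called, and 4677 when the mean of both hairpins was tested in the fit of 3 groups. The median log2 fold change of the 9 genes was 0.91, and that of all genes was 0.015. In bulk RNA a change in the share of cells that express a gene and a change in RNA per cell cannot be told apart. The fibroblast and leukocyte marker sums above were also higher with each hairpin, but not every marker in them was. Mean normalized counts of single markers follow, ordered as scr control, shMPZL3 #1, shMPZL3 #2. Among leukocyte markers, CD14 had 7.39, 24.1 and 22.6, and PTPRC 10.2, 9.09 and 15.4. Among fibroblast markers, PDGFRB had 3.58, 2.27 and 2.52, COL1A1 265, 688 and 409, COL1A2 52.8, 164 and 68.7, and LUM 89.4, 153 and 243. The part of these markers in the result was not tested.

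PLAU rose with both hairpins and far more with shMPZL3 #1. The 3 scr control libraries held 669, 738 and 752 normalized counts, the 3 shMPZL3 #1 libraries 2846, 3971 and 4598, and the 3 shMPZL3 #2 libraries 1304, 1317 and 1409. The 3 groups did not overlap, and shMPZL3 #2 lay between the other two with a spread of only 57.5 (SD, n = 3), against 888 for shMPZL3 #1. The log2 fold change was 2.40 ± 0.14 (SE; adjusted p = 4.23e-08) with shMPZL3 #1 and 0.90 ± 0.14 (adjusted p = 0.000306) with shMPZL3 #2 by the edgeR quasi-likelihood test. The difference of shMPZL3 #2 from shMPZL3 #1 was -1.50 on the log2 scale (95% interval -1.79 to -1.21, adjusted p = 4.12e-06). Grouped, the change was 1.84 ± 0.41 (adjusted p = 0.0106). Leaving out scr control replicate 1 ended the grouped call (adjusted p = 0.070) with a log2 fold change of 1.78 ± 0.50, while omitting replicate 2 or 3 of that group kept it (adjusted p = 0.0496 and 0.0439). Each single-hairpin call held. PLAU (ENSG00000122861) lies on chr10:73909177-73917497, plus strand, and 916 bases of its exons overlap those of C10orf55 on the other strand. The libraries did not keep strand, and C10orf55 had 71 counts in all against 18262 for PLAU. How reads in the shared bases were counted is not given, so the effect of the overlap on the level of PLAU is not known.

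PLAUR, the receptor that holds urokinase at the membrane, rose with each hairpin. Its normalized counts were 547, 575 and 667 in the scr control, 1003, 981 and 1183 with shMPZL3 #1, and 1102, 1130 and 1340 with shMPZL3 #2. Every knockdown library lay above every scr control library, and the ranges of the hairpins overlapped. The log2 fold changes were 0.83 ± 0.12 (SE; adjusted p = 9.64e-05) with shMPZL3 #1 and 1.00 ± 0.12 (adjusted p = 3.05e-05) with shMPZL3 #2 by the edgeR quasi-likelihood test. The difference between hairpins did not pass (0.17, 95% interval -0.07 to 0.42, adjusted p = 0.343). The gene (ENSG00000011422) lies on chr19:43646095-43670547, minus strand.

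PLAT, the tissue-type activator, had few reads in the scr control, with 12, 14 and 9 raw counts in the 3 libraries. It reached 45, 64 and 77 raw counts with shMPZL3 #1 and 45, 30 and 52 with shMPZL3 #2. The knockdown libraries did not overlap the scr control, but the level stayed low: 0.102 CPM per kb of gene length in the scr control, 0.435 under shMPZL3 #1 and 0.282 under shMPZL3 #2. The log2 fold changes were 2.09 ± 0.35 (SE; adjusted p = 0.000322) and 1.47 ± 0.36 (adjusted p = 0.0108) by the edgeR quasi-likelihood test, with no called difference between the hairpins (-0.62, 95% interval -1.27 to 0.03, adjusted p = 0.191). PLAT (ENSG00000104368) lies on chr8:42175233-42207724, minus strand.

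MMP7, the small metalloproteinase matrilysin made by glandular epithelium, was the most abundant of the 9 transcripts and rose further. The scr control libraries held 6641, 7343 and 7867 normalized counts, shMPZL3 #1 10423, 17450 and 17158, and shMPZL3 #2 16398, 26573 and 21553. No knockdown library fell into the scr control range, and the first shMPZL3 #1 library lay well below the other two. Its log2 fold change was 1.04 ± 0.18 (SE; adjusted p = 0.000342) with shMPZL3 #1 and 1.56 ± 0.18 (adjusted p = 2.09e-05) with shMPZL3 #2 (edgeR quasi-likelihood test). The hairpins differed by 0.52 (95% interval 0.15 to 0.89), which missed the threshold after adjustment (adjusted p = 0.0559) and passed it under 5 of 16 alternatives. Among all genes tested, MMP7 moved from position 200 to 72 and 48 by CPM per kb. The gene (ENSG00000137673) lies on chr11:102520508-102530753, minus strand.

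MMP10, a stromelysin with a broad range of matrix substrates, rose from a low level. Normalized counts were 33.2, 55.7 and 31.6 in the scr control, 103, 183 and 151 with shMPZL3 #1, and 109, 209 and 209.7 with shMPZL3 #2. Both hairpins lay above the scr control in every library, and they overlapped each other. The log2 fold changes were 1.82 ± 0.30 (SE; adjusted p = 0.000295) and 2.10 ± 0.30 (adjusted p = 0.000162), and their difference was 0.28 (95% interval -0.28 to 0.84, adjusted p = 0.535, edgeR quasi-likelihood test). MMP10 (ENSG00000166670) lies on chr11:102770503-102780628, minus strand, where WTAPP1 overlaps it on the other strand with no shared exon base.

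MMP14, the membrane-anchored collagenase also known as MT1-MMP, had the smallest rise of the 3 metalloproteinases. It held 465, 588 and 478 normalized counts in the scr control, 702, 861 and 1133 with shMPZL3 #1, and 824, 734 and 899.7 with shMPZL3 #2. The scr control did not overlap either hairpin, and the hairpins overlapped. The log2 fold changes were 0.81 ± 0.16 (SE; adjusted p = 0.000832) and 0.68 ± 0.16 (adjusted p = 0.00684), with a difference of -0.13 between them (95% interval -0.45 to 0.19, adjusted p = 0.613, edgeR quasi-likelihood test). Grouped, MMP14 changed by 0.75 ± 0.15 (adjusted p = 0.00646), and leaving out scr control replicate 1 gave 0.68 ± 0.18 with an adjusted p of 0.0594. The gene (ENSG00000157227) lies on chr14:22836557-22849027, plus strand.

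**Figure D1:**
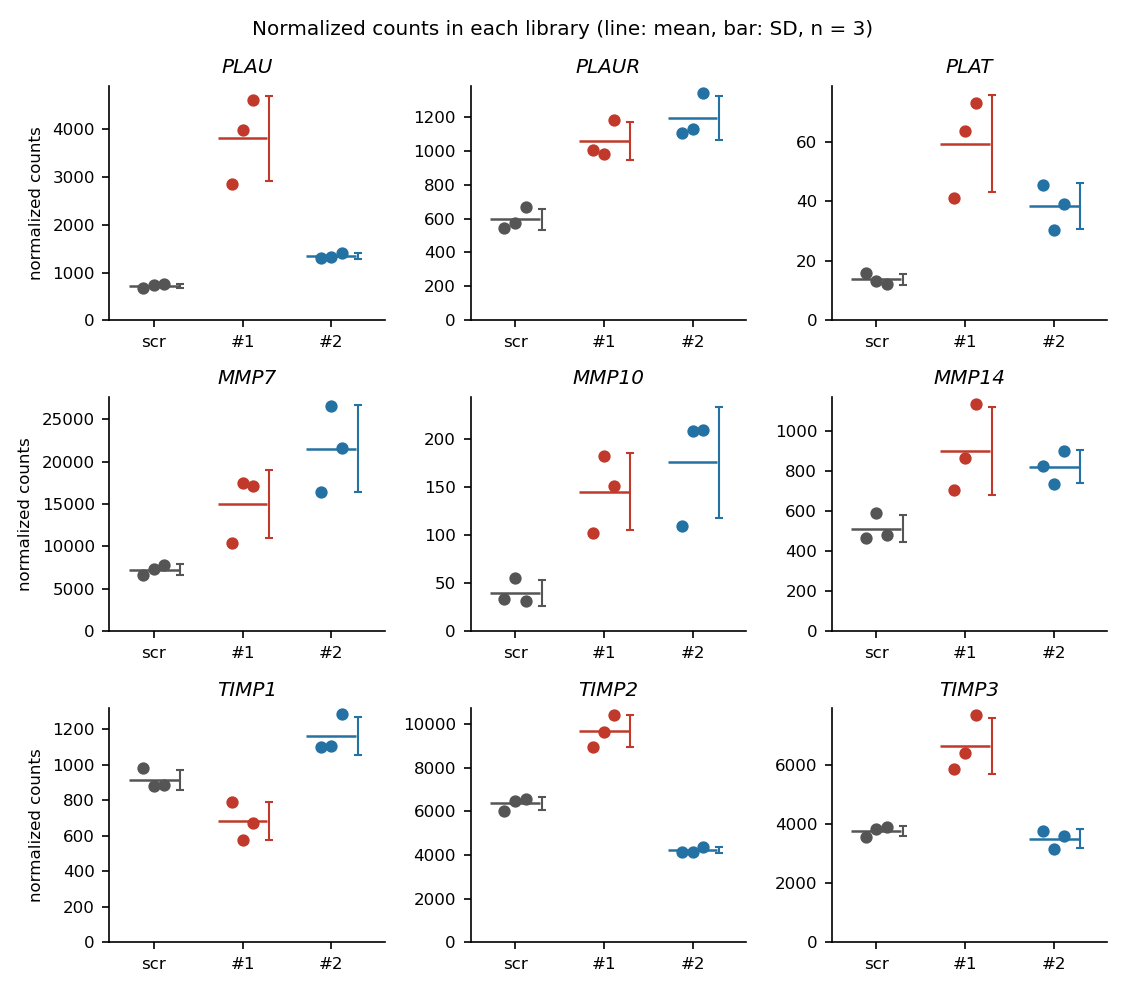
Normalized counts of the 9 genes in each library (vertical axes, linear from 0) for the scr control and each hairpin, with points for libraries in replicate order, a line for the mean and a bar for the SD (n = 3). In the top and middle rows every knockdown library lies above the scr control, and in the bottom row the TIMP genes move apart by hairpin.

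For these 6 genes the groups did not overlap in the grouped comparison, as was the case, in the higher direction, for 11.8% of all genes tested. The exact permutation test on log2 CPM (two-sided, 6 libraries against 3) gave p = 0.0119 for PLAUR, PLAT, MMP7, MMP10 and MMP14, the smallest value this design allows, and p = 0.0238 for PLAU. That test treats the 6 libraries of both hairpins as replicates of a single condition. For a single hairpin, with 3 libraries against 3, the exact permutation test cannot go below p = 0.1. The grouped log2 fold changes of the genes not yet given were 0.91 ± 0.12 for PLAUR (adjusted p = 0.00061), 1.81 ± 0.36 for PLAT (adjusted p = 0.00582), 1.33 ± 0.22 for MMP7 (adjusted p = 0.00227) and 1.98 ± 0.31 for MMP10 (adjusted p = 0.00147), each ± SE from edgeR.

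The 3 TIMP genes did not share a direction. TIMP1, a secreted inhibitor that also acts as a growth factor, held 980.0, 881 and 885 normalized counts in the scr control, 791, 578 and 673 with shMPZL3 #1, and 1097, 1103 and 1283 with shMPZL3 #2. The 3 groups did not overlap, with the scr control in the middle. TIMP1 fell by 0.43 ± 0.12 (SE, log2) with shMPZL3 #1 (edgeR quasi-likelihood test, adjusted p = 0.013). Leaving out scr control replicate 1 ended that call (adjusted p = 0.0618), and so did leaving out shMPZL3 #1 replicate 2 (adjusted p = 0.053). Its log2 fold change was 0.34 ± 0.12 with shMPZL3 #2 (adjusted p = 0.0621), and it passed the threshold in 4 of 16 alternatives. The hairpins differed by 0.77 ± 0.12, higher with shMPZL3 #2 (adjusted p = 0.000459). TIMP1 (ENSG00000102265) lies on chrX:47582313-47586789, plus strand, inside SYN1, which runs on the other strand, shares no exon base and had 276 counts against 8351.

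TIMP2 moved in opposite directions with the hairpins. Its normalized counts were 6034, 6498 and 6565 in the scr control, 8957, 9635 and 10418 with shMPZL3 #1, and 4138, 4147 and 4383 with shMPZL3 #2. Each group kept to a narrow range of its own. TIMP2 rose by 0.60 ± 0.09 (SE, log2) with shMPZL3 #1 (adjusted p = 0.00015) and fell by 0.59 ± 0.09 with shMPZL3 #2 (adjusted p = 0.000352), and the difference of -1.20 between the hairpins had a 95% interval of -1.39 to -0.998 (adjusted p = 9.89e-07, edgeR quasi-likelihood test). TIMP2 (ENSG00000035862) lies on chr17:78852977-78925387, minus strand. CEP295NL on its strand shares 198 exon bases and had 229 counts against 60709 for TIMP2. Both single-hairpin calls and the difference held under each of the 16 alternative fits.

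TIMP3, the inhibitor that stays bound to the matrix, held 3574, 3842 and 3885 normalized counts in the scr control, 5847, 6395 and 7695 with shMPZL3 #1, and 3770.1, 3164 and 3591 with shMPZL3 #2. The shMPZL3 #1 libraries lay above all others, and the shMPZL3 #2 libraries overlapped the scr control. The log2 fold change was 0.82 ± 0.11 (SE; adjusted p = 5.19e-05) with shMPZL3 #1 and -0.10 ± 0.11 with shMPZL3 #2 (95% interval -0.34 to 0.13, adjusted p = 0.578), a difference of -0.92 ± 0.11 (adjusted p = 4.84e-05, edgeR quasi-likelihood test). TIMP3 (ENSG00000100234) lies on chr22:32801701-32863043, plus strand, within SYN3 on the other strand, which had 6 counts in all. Grouped, TIMP1, TIMP2 and TIMP3 gave log2 fold changes of 0.01 ± 0.21, 0.13 ± 0.29 and 0.43 ± 0.24 (adjusted p = 0.981, 0.806 and 0.247), values that average over hairpins that differ. The permutation p-values were 0.905, 0.940 and 0.393 (exact, two-sided).

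By hairpin, shMPZL3 #1 gave 8 of 9 genes higher and 1 lower (TIMP1), where 16.8% of all tested genes were higher and 15.3% lower. With shMPZL3 #2, 6 of 9 were higher and 1 lower (TIMP2), against 9.36% and 5.80% of all genes. The medians of the 9 log2 fold changes were 0.83 and 0.90, beside 0.0087 and 0.0034 over all genes. Both comparisons use the same 3 scr control libraries. Between hairpins, 1 of 9 was higher with shMPZL3 #2 (TIMP1) and 3 were lower (PLAU, TIMP2 and TIMP3), where 7.56% of all genes passed in each direction. The median of the 9 differences was -0.13, against 0.0079 over all genes. When a rise of 1 or more on the log2 scale was also required, 4 genes passed with shMPZL3 #1 (PLAU, PLAT, MMP7 and MMP10) and 4 with shMPZL3 #2 (PLAUR, PLAT, MMP7 and MMP10), as did 5.94% and 3.38% of all genes. PLAUR passed there at 1.0002, and its value was under 1 with DESeq2 (0.996), RLE normalization (0.996), the replicate block (0.997), thinning (0.977) and without scr control replicate 1 or 2 or shMPZL3 #2 replicate 3 (0.919 to 0.975). Libraries of shMPZL3 #1 did not overlap the scr control for 8 genes in the higher direction and 1 in the lower, against 23.9% and 22.8% of all genes. Those of shMPZL3 #2 did not overlap it for 7 and 1, against 18.7% and 17.6%.

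**Figure D2:**
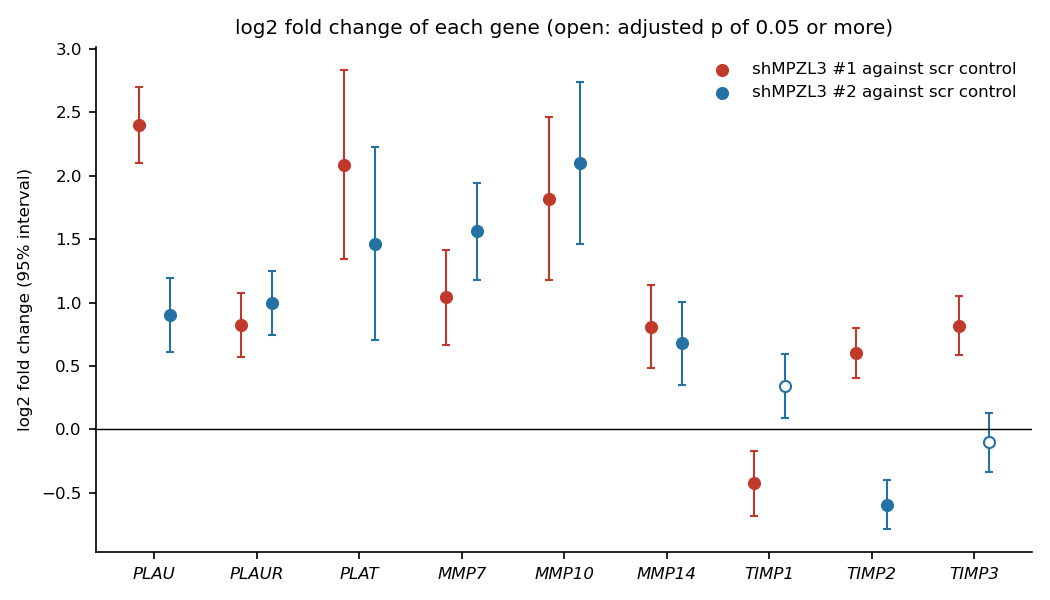
The log2 fold change of each of the 9 genes against the scr control (vertical axis) with its 95% interval, for shMPZL3 #1 (red) and shMPZL3 #2 (blue), where filled points have an adjusted p under 0.05 and open points do not. PLAU, TIMP1, TIMP2 and TIMP3 are the genes whose fold changes were called different between the hairpins.

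Levels of different genes were compared as CPM per kb of gene length. That length is of all annotated exons merged, and the lengths of the transcripts present were not measured. The order of the genes and their ratios and shares depend on it. In the scr control the order was MMP7 (152 ± 12.9), TIMP2 (55.0 ± 2.50), TIMP3 (39.8 ± 1.78), TIMP1 (28.9 ± 1.77), PLAU (11.9 ± 0.733), PLAUR (6.51 ± 0.685), MMP14 (5.56 ± 0.731), MMP10 (1.11 ± 0.371) and PLAT (0.102 ± 0.0138), each as mean ± SD of 3 libraries. PLAUR and MMP14 were the only neighbors in that order whose library ranges overlapped. With shMPZL3 #1, PLAU reached 62.7 ± 14.6 CPM per kb, above TIMP1 and overlapping TIMP3, and its place among all tested genes moved from 3845 to 618. With shMPZL3 #2 PLAU was at place 2167. MMP7 stood first in every group, at 314 ± 83.2 with shMPZL3 #1 and 450.2 ± 107 with shMPZL3 #2.

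The makeup of the TIMP transcripts differed by hairpin. Of the summed TIMP level per kb, TIMP1 made up 23.4% ± 1.92 (SD, n = 3) in the scr control, falling to 12.4% ± 2.48 under shMPZL3 #1 and reaching 33.2% ± 1.71 under shMPZL3 #2. TIMP2 made up 44.4% ± 1.13, 47.7% ± 1.34 and 33.1% ± 1.12, and TIMP3 32.2% ± 0.792, 40.0% ± 2.29 and 33.6% ± 2.19. With shMPZL3 #2 the inhibitors were thus at nearly equal levels by this measure, between 36.5 and 37.1 CPM per kb, and their library ranges overlapped. That equality depends on the gene lengths used.

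**Figure D3:**
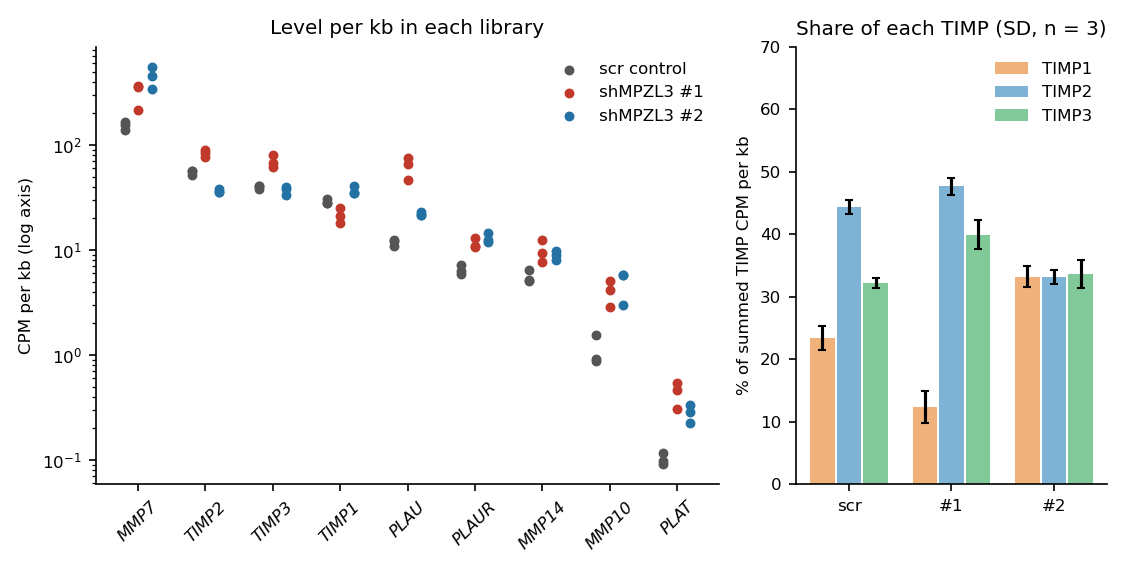
Left, CPM per kb of gene length (log axis) of the 9 genes in each library, ordered by the scr control mean; right, the mean percent of the summed TIMP level held by each TIMP gene, with bars for the SD (n = 3). On this scale MMP7 is highest in all groups, and the TIMP shares are nearly equal with shMPZL3 #2.

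Ratios of the levels per kb within a library put a protease beside its partner, as a description with no test. MMP14 to TIMP2 (mean ± SD, n = 3) was 0.101 ± 0.0116 in scr control libraries, 0.116 ± 0.0194 under shMPZL3 #1 and 0.245 ± 0.0187 under shMPZL3 #2. The first 2 ranges overlapped, and the third stood apart. PLAU to PLAUR was 1.83 ± 0.118, 5.43 ± 0.995 and 1.71 ± 0.108 in the same order, so that activator and receptor kept close to their scr control ratio with shMPZL3 #2 and not with shMPZL3 #1. MMP7 to the sum of the TIMP genes was 1.23 ± 0.0798, 1.79 ± 0.422 and 4.11 ± 1.13, with no overlap between groups.

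**Figure D4:**
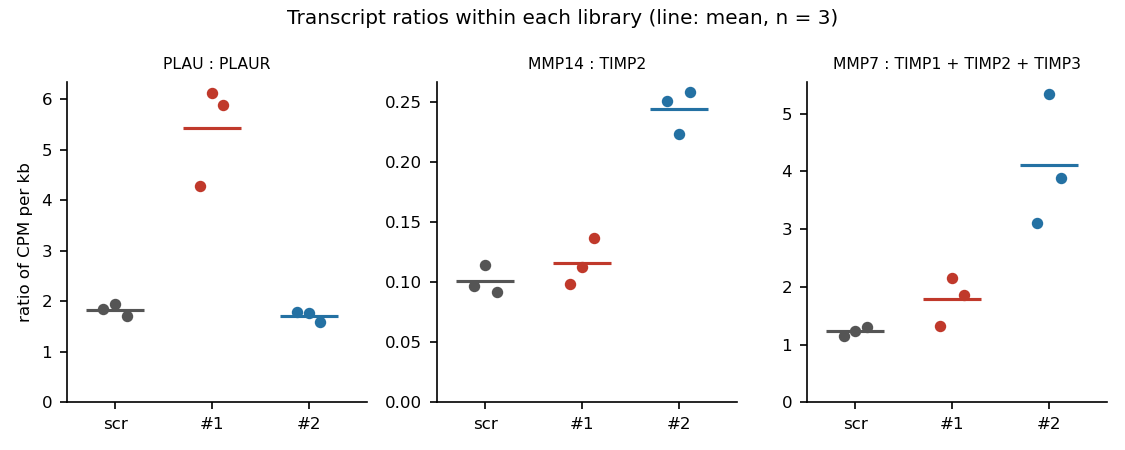
Ratios of CPM per kb within each library (vertical axes, linear from 0) for PLAU to PLAUR, MMP14 to TIMP2, and MMP7 to the summed TIMP genes, with points for libraries and lines for means (n = 3). PLAU to PLAUR is raised with shMPZL3 #1 alone, and the ratios with a TIMP below are highest with shMPZL3 #2.

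Of 13 other genes of the plasminogen system 9 could be tested, and the grouped comparison called 1 higher and 0 lower, beside 9.36% and 6.40% of all genes, with a median log2 fold change of 0.040 beside 0.015. The gene called was PLGRKT, a plasminogen receptor on the cell surface (grouped log2 fold change 0.44, adjusted p = 0.017, edgeR). With shMPZL3 #1, 4 of 9 rose and 0 fell (16.8% and 15.3% of all genes), and with shMPZL3 #2, 1 rose and 0 fell (9.36% and 5.80%). SERPINE2, which encodes protease nexin-1, an inhibitor of urokinase and thrombin, had only 4 to 36 counts and a grouped log2 fold change of 0.03 (adjusted p = 0.981). SERPINB2, which encodes PAI-2, had 0 counts in every library, and PLG, the gene of plasminogen itself, had 1 count in all 9 libraries.

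Of 20 other matrix metalloproteinases 11 could be tested, of which 3 were higher and 0 lower in the grouped comparison (9.36% and 6.40% of all genes), with a median of 0.87. With shMPZL3 #1, 6 of 11 rose (16.8% of all genes) and with shMPZL3 #2, 4 of 11 rose (9.36%), with 0 lower in either. Among the genes counted as higher, MMP1, MMP16 and MMP12 had means of only 1.69, 3.46 and 4.45 normalized counts in the scr control. They passed the filter on low counts through knockdown libraries alone and could hardly have been called lower, which limits the comparison with the shares of all genes. MMP24, a membrane-type enzyme, rose from 362, 526 and 540.3 normalized counts to 876, 996 and 1213 under shMPZL3 #1, and to 860.5, 915 and 1006 under shMPZL3 #2 (grouped log2 fold change 1.04, adjusted p = 0.000996, edgeR). Its exons overlap those of MMP24OS on the other strand by 799 bases, and with 9232 counts for MMP24OS against 7556 for MMP24 the reads of the pair cannot be told apart there. MMP2, the gelatinase whose activation involves MMP14, held 91.8, 104 and 88.0 normalized counts in the scr control, 182, 208 and 255 with shMPZL3 #1, and 93.1, 111 and 191 with shMPZL3 #2. It rose with shMPZL3 #1 (log2 fold change 1.18, adjusted p = 0.00135) and was not called with shMPZL3 #2 (0.48, adjusted p = 0.197, edgeR). The difference between the hairpins was -0.70 (adjusted p = 0.0504). MMP9, the other gelatinase, had at most 16 counts and was not tested.

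MMP7 and MMP10 belong to a run of 9 metalloproteinase genes that spans 435 kb of chromosome 11, on the same arm as MPZL3 and 15.3 Mb from it. Of the 9, MMP7, MMP20, MMP10, MMP1 and MMP12 had enough counts for the test, and MMP27, MMP8, MMP3 and MMP13 had at most 11 counts in any library. MMP1 and MMP12 passed the filter on low counts through knockdown libraries alone, so they could hardly have been called lower. MMP20, the enzyme enamelysin known from tooth enamel, had 7, 24 and 14 counts in the scr control, 76, 130 and 152 with shMPZL3 #1, and 26, 70 and 100 with shMPZL3 #2 (log2 fold changes 2.70 and 1.73, adjusted p = 0.000158 and 0.0116, edgeR). An antisense gene, AP000851.1, shares 206 exon bases with MMP20 and had 480 counts against 599. MMP12, the macrophage elastase, had 3, 7 and 2 counts in the scr control, 6, 21 and 28 with shMPZL3 #1, and 42, 114 and 108 with shMPZL3 #2 (log2 fold changes 1.88 and 4.06, adjusted p = 0.0326 and 0.000139, edgeR). MMP1, the interstitial collagenase, had 0, 1 and 3 counts in the scr control and 0, 0 and 6 with shMPZL3 #1, against 14, 10 and 29 with shMPZL3 #2 (adjusted p = 0.0412 with shMPZL3 #2, edgeR), and 150 of its exon bases overlap WTAPP1 on the other strand.

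**Figure D5:**
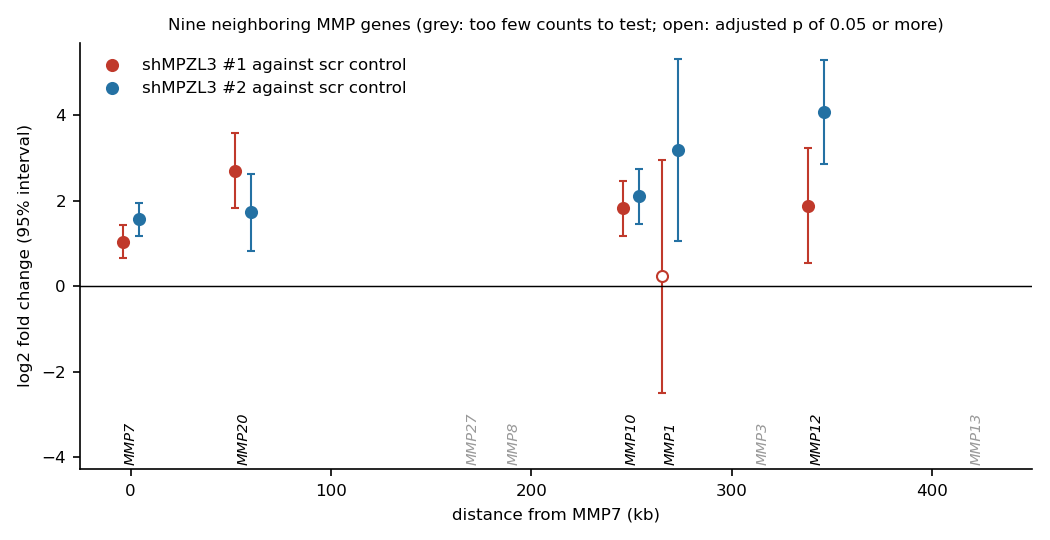
The log2 fold change against the scr control (vertical axis, with 95% interval) of the 5 testable genes of the metalloproteinase run, by distance from the start of MMP7 in kb (horizontal axis), for shMPZL3 #1 (red) and shMPZL3 #2 (blue), with the 4 untested genes in grey. All filled points lie above 0, and the open point is MMP1 with shMPZL3 #1, which had 0 to 6 counts. MMP1 and MMP12 entered the test through knockdown libraries alone and could hardly have been called lower.

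Of 9 other regulators of metalloproteinases 7 were tested, and 2 were higher and 0 lower in the grouped comparison, beside 9.36% and 6.40% of all genes, with a median of 0.10. FURIN, the convertase that cleaves the MMP14 precursor, rose from 1844, 1949 and 1888 normalized counts to 3508, 3071 and 3655 under shMPZL3 #1, and to 2837, 2204 and 2462 under shMPZL3 #2 (log2 fold changes 0.85 and 0.40, adjusted p = 3.07e-05 and 0.0178, edgeR). RECK, a membrane-anchored inhibitor of metalloproteinases, had log2 fold changes of -0.11 and -0.55 that did not pass (adjusted p = 0.730 and 0.0925).

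Among 30 ADAM and ADAMTS genes, metalloproteinases related to the MMP family, 20 were tested, and 5 rose and 1 fell in the grouped comparison (median 0.43), beside 9.36% and 6.40% of all genes. ADAMTS1, which cleaves proteoglycans, rose from 2669, 2994 and 2823 normalized counts to 3850, 4313 and 4600.3 under shMPZL3 #1, and to 4646, 4557 and 4669 under shMPZL3 #2. The grouped log2 fold changes of ADAMTS1, ADAMTS9, ADAM19 and ADAMTS14 were 0.65, 2.16, 0.75 and 0.91 (adjusted p = 0.00119, 0.00181, 0.00227 and 0.00443, edgeR). ADAM19 shares 62 exon bases with CYFIP2 on the other strand, which had 13362 counts against 5326 for ADAM19. ADAMTS15, chosen here after its values were seen, was the gene that fell (-0.71, adjusted p = 0.0272). With shMPZL3 #1, 7 of 20 rose and 4 fell (16.8% and 15.3% of all genes), and with shMPZL3 #2, 6 rose and 2 fell (9.36% and 5.80%). Among the 7, ADAMTS2 had means of only 6.38 normalized counts in the scr control and 4.64 with shMPZL3 #2. It passed the filter on low counts through the shMPZL3 #1 libraries alone and could hardly have been called lower with that hairpin.

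The last list held 24 serine and lysosomal proteases and their inhibitors, of which 22 were tested, 7 rose and 1 fell in the grouped comparison (median 0.23), beside 9.36% and 6.40% of all genes. With shMPZL3 #1, 11 of 22 rose and 1 fell (16.8% and 15.3% of all genes), and with shMPZL3 #2, 9 rose and 1 fell (9.36% and 5.80%). DPP4, a membrane dipeptidase, had 2, 2 and 0 counts in the scr control and 30 to 44 in every knockdown library (grouped adjusted p = 0.000473, edgeR). It passed the filter on low counts through knockdown libraries alone and could hardly have been called lower. SPINT1, which encodes an inhibitor of matriptase and hepsin, and CTSS, which encodes the lysosomal protease cathepsin S, changed by 0.86 and 1.42 on the log2 scale (adjusted p = 0.00061 and 0.00068, edgeR). SPINT1 shares 100 exon bases with SPINT1-AS1 on the other strand, which had 2468 counts against 39079 for SPINT1. TMPRSS4, a membrane serine protease, fell from 2036, 1769 and 1973 normalized counts to 1302, 1166 and 1088 under shMPZL3 #1, and to 1144, 1185 and 1301 under shMPZL3 #2 (grouped log2 fold change -0.68, adjusted p = 0.000681, edgeR).

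The profiles of the 9 genes over the 9 libraries were compared in pairs. Likeness was measured as the root mean square difference of log2 CPM after each profile was centered on its own mean, where 0 is an identical profile. It depends on the size of the changes as well as on their shape. Among the 36 pairs of the 9 genes the closest were TIMP2 with TIMP3 (0.213) and PLAUR with MMP14 (0.221), followed by PLAUR with MMP7 (0.337). The farthest pair was PLAU with TIMP1 (1.24). Against 11833 other protein-coding genes, PLAUR was closest to CYR61, BCAR3 and CD74 (0.077 to 0.081), MMP14 to PLXNA3, MOV10 and CCDC9B (0.076 to 0.092), and MMP7 to SAT1, ITGA2 and TGFA (0.143 to 0.182). ZNF469 and PCDHB11 were among the closest to PLAU (0.225 and 0.243). MMP10 was closest to ARRDC4, SULF1 and SLC1A1 (0.284 to 0.323). PLAT, itself under the mean log2 CPM of 1 required of the compared genes, was set against 11834 of them. It was closest to TMEM86A, RASL11A and FAM189A2 (0.256 to 0.278). The measure shares libraries, depth and groups among all genes and is given as a description.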

How the data were processed

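RNA-seq of 9 OVCAR4 libraries (3 scr control, 3 shMPZL3 #1, 3 shMPZL3 #2; grouped by the labels) was analysed from the table of read counts per gene that the authors deposited. The submitters' processing notes name hg38, HISAT2 2.0.5 and featureCounts 1.5.0-p3, and the libraries were poly-A selected and non-directional. How reads over more than 1 gene were handled is not given in the sources used here. All 58735 genes matched GENCODE release 29 in identifier, position and name, and the deposited gene length equalled the merged exon length for 58724. Gene coordinates are GRCh38 from the table. Promoter sequences come from RefSeq (GRCh38.p14).

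Counts were tested with edgeR 4.0.16 (R 4.3.3): TMM, filterByExpr, quasi-likelihood test, two-sided, Benjamini-Hochberg over 16928 genes, called at an adjusted p under 0.05. The grouped comparison fitted 2 groups, as the study's methods group the hairpins. Comparisons of single hairpins came from a fit of 3 groups. A normalized count is the count divided by the library's effective size relative to the mean of all libraries, and CPM per kb divides TMM-scaled CPM by gene length. Log2 CPM used a prior count of 2. Simulated counts for these genes were given the same change in both hairpins, with a spread taken from the fit of 3 groups. On them the grouped test recovered 51 of 72 genes changed 2-fold, 65 of 71 changed 4-fold, and called 12 of 16728 unchanged genes. Genes that differ between the hairpins were not simulated, so these rates do not cover them. The replicates are separate biological replicates per the study's methods, and p-values of single hairpins and of their difference measure the spread among them. The grouped tests, the permutation test included, treat the knockdown libraries of both hairpins as replicates of one condition. Their spread therefore also holds the difference between the hairpins, as in the SE of PLAU (0.41 grouped, 0.14 with each hairpin).

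The members and gene lists were chosen with earlier results of these data known. Besides the 9 genes and MPZL3, the text names SERPINE2, SERPINB2, MMP1, MMP2, MMP9, RECK, the 4 genes of each list with the smallest grouped adjusted p among those called with both hairpins in the same direction, genes that overlap a member, and the 3 protein-coding genes (mean log2 CPM of at least 1) with the profile closest to each gene called. Alternatives were DESeq2 1.42.0, RLE and upper-quartile normalization, no filter, at least 10 counts in every library, thinning to the smallest library, a replicate block, the mean of both hairpins in the fit of 3 groups, a threshold of 1 on the size of the log2 fold change, and leaving out each library. A gene of the plasminogen list and a gene of the profile comparison are not reported here.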

Additional observations from a re-analysis of the deposited data

Results flagged for a closer look

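The hairpins differed in 4 of the 9 genes by the test of the difference itself (edgeR quasi-likelihood test, shMPZL3 #2 minus shMPZL3 #1, log2 scale). PLAU was lower with shMPZL3 #2 by -1.50 (adjusted p = 4.12e-06), with both hairpins above the scr control. TIMP2 differed by -1.20 (adjusted p = 9.89e-07), with the scr control between the hairpins. TIMP3 differed by -0.92 (adjusted p = 4.84e-05), with shMPZL3 #1 alone above the scr control. TIMP1 differed by 0.77 in the other direction (adjusted p = 0.000459), again with the scr control between the hairpins. MPZL3 itself was lower with shMPZL3 #1 than with shMPZL3 #2, and whether the depth of knockdown or the hairpin sequence goes with these differences cannot be told apart with 1 hairpin at each depth.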

How the results depend on the processing

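Of 581 values of the 9 genes under alternative settings, 557 kept their direction and their side of the threshold. Calls were lost for PLAU and MMP14 grouped without scr control replicate 1, and for TIMP1 with shMPZL3 #1 without scr control replicate 1 or shMPZL3 #1 replicate 2. TIMP1 with shMPZL3 #2 passed with at least 10 counts in every library, with the replicate block, or without shMPZL3 #1 replicate 1 or 2 (adjusted p = 0.0216 to 0.239 over its alternatives). TIMP3 grouped passed with no filter (adjusted p = 0.0376) and with the mean of both hairpins (adjusted p = 0.0111). MMP7 between hairpins passed with DESeq2, no filter, the replicate block, or without shMPZL3 #1 replicate 2 or shMPZL3 #2 replicate 1, with adjusted p-values over its alternatives from 5.97e-05 to 0.201. Directions turned only for values near 0: TIMP1 grouped (log2 fold change -0.0051 thinned, -0.041 with the mean of both hairpins and -0.092 to 0.114 leaving out a library), TIMP2 grouped (-0.025 to 0.248 leaving out a library) and MMP14 between hairpins (-0.290 to 0.070 leaving out a library). A required log2 change of 1 or more in size left 4 of the 9 genes with shMPZL3 #1, 4 with shMPZL3 #2 and 2 between hairpins, and 681, 1242, 686 and 539 of all genes in the order grouped, shMPZL3 #1, shMPZL3 #2 and between hairpins. These counts were 2667, 5423, 2567 and 2559 as reported. The mean of both hairpins gave 4677 grouped. Leaving out a library gave 625 to 3187 grouped, 3696 to 5816 with shMPZL3 #1, 1366 to 3055 with shMPZL3 #2 and 1469 to 2953 between hairpins. The lowest grouped count came without scr control replicate 1, when 4 of the 9 genes were still called. The cause of these changes was not tested. With a replicate block the counts were 2424, 6355, 3680 and 3823, and 6, 9, 8 and 5 of the 9 genes were called. The same-numbered libraries correlated from -0.0014 to 0.218, not above 0.1 in every pair, and no label ties a number to a shared source, so the main results carry no block. As a hint from the data, 8 of 9 libraries correlated best with their own number. With single hairpins the SE was largest for PLAT, which at 9 to 14 counts in the scr control was left out by the minimum of 10 counts in every library.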
